A study of Homo sapiens with 24 samples.

Results

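The 6 genes described here encode proteins on the cell surface: SEZ6 and its relatives SEZ6L and SEZ6L2, the adhesion molecule NCAM1, the immune checkpoint molecule CD276 and the somatostatin receptor SSTR2. They were chosen by symbol, and are 6 of 16796 genes listed in at least 1 of 5 deposited tables. Tables for H209, H82 and the comparison of line classes list all 6, and those for H187 and SHP-77 list 5, without SSTR2. The samples were 24 libraries of total RNA from 4 human small-cell lung cancer lines, which are established neuroendocrine lung tumour lines. H187 and H209, named ISL1-high in the series design, and H82 and SHP-77, named ISL1-low, each gave 3 libraries after 24 h with 0.1 nM lurbinectedin and 3 after the same time in DMSO, its vehicle. All lines grew in RPMI-1640 with serum, and the labels name no introduced allele. The design text calls the 3 libraries of a group biological triplicates. Each class rests on 2 lines, and a cell line is 1 tumour's descendants in culture.

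SEZ6, SEZ6L and SEZ6L2 are single-pass membrane proteins with extracellular CUB and sushi domains. In neurons they take part in dendrite and synapse development, and the protease BACE1 cleaves SEZ6 and SEZ6L near the membrane. SEZ6 is a target of antibody-drug conjugates in small-cell lung cancer, as is CD276 (also called B7-H3), a member of the B7 family of immune regulators. NCAM1 (CD56) binds itself and other ligands between neighbouring cells and is a standard diagnostic marker of neuroendocrine lung tumours. SSTR2 is an inhibitory G protein-coupled receptor, and radiolabelled somatostatin analogues reach tumours through it. Lurbinectedin is an alkylating agent that attaches to guanine in the DNA minor groove, where it blocks transcribing RNA polymerase II. RNA was measured, and protein at the cell surface was not.

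Libraries held between 24226553 and 36415190 counts over the genes listed for their line. ISL1 averaged 218 ± 4.40 CPM (counts scaled to a library of 1000000, SD, n = 3) after lurbinectedin and 250 ± 8.66 in DMSO in H187, and 163 ± 4.36 and 204 ± 6.57 in H209. It lay under 5 CPM in every library of H82 and SHP-77, so the line classes held. Of 7 neuroendocrine markers, 6 were listed in H187, H209 and H82 and 5 in SHP-77. CHGA was listed in no line table, and NEUROD1 not in that of SHP-77. The summed level of those listed lay between 908 CPM in a DMSO library of H82 and 3346 CPM in a DMSO library of SHP-77. PTPRC, CD3E, LYZ, DCN and CDH5, which define leukocytes, fibroblasts and endothelium, were listed in none of the 4 line tables. Other markers of those cells were listed at low levels. The leukocyte list was represented by 1 of its 4 genes in every line, the macrophage gene CD68, at 0.505 to 2.48 CPM in lurbinectedin libraries and 0.379 to 1.73 CPM in DMSO libraries. CD68 was higher in H209 (2.17 ± 0.335 CPM after lurbinectedin and 1.22 ± 0.127 in DMSO, log2 fold change 0.84 ± 0.21, adjusted p = 8.5e-04). Of 3 fibroblast genes, the summed level reached 9.15 CPM in lurbinectedin libraries and 8.40 CPM in DMSO libraries, in H187, and none was listed in SHP-77. Of 3 endothelial genes, it reached 8.08 and 8.89 CPM, also in H187, and none was listed in H82. No fibroblast or endothelial gene passed in any line. Of 7 tuft-like or non-neuroendocrine markers, 2 to 4 were listed by line. Among them YAP1 was lower in H187 (-0.65 ± 0.23), REST higher in H209 (0.63 ± 0.21) and VIM higher in H82 (0.50 ± 0.13), and POU2F3 was listed in no line. The part of these markers in the results was not tested. Changes are in relation to the rest of each library, and fewer expressing cells and less RNA per cell cannot be told apart. A gene was called changed at an adjusted p under 0.05 in edgeR's quasi-likelihood test, with Benjamini-Hochberg adjustment over all genes of a fit. All adjusted p-values given without another tool's name come from it.

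In hg38, as the files give it, SEZ6 lies on chromosome 17 from 28954929 to 29006440 on the minus strand, with 4297 exonic bases. SEZ6L lies on chromosome 22 from 26169474 to 26383597 on the plus strand, with 6573 exonic bases. SEZ6L2 lies on chromosome 16 from 29871159 to 29899264 on the minus strand, with 3557. NCAM1 lies on chromosome 11 from 112961247 to 113278436 on the plus strand, with 8527. CD276 lies on chromosome 15 from 73684281 to 73714518 on the plus strand, with 3570. SSTR2 lies on chromosome 17 from 73165021 to 73171923 on the plus strand, with 2964. The members therefore differ in genomic span: 6.9 kb for SSTR2, 28.1 kb for SEZ6L2, 30.2 kb for CD276, 51.5 kb for SEZ6, 214.1 kb for SEZ6L and 317.2 kb for NCAM1. In GENCODE v29 the antisense genes NCAM1-AS1 and AP000802.1 share 552 and 151 exonic bases with NCAM1, and the strand setting of the counting is not given in the sources used here. The GENCODE model of SSTR2 ends 4710 bases beyond the end in the files, and AC097641.1 shares 277 exonic bases with it on the same strand, so reads there could have been counted differently.

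RefSeq's promoter table for GRCh38.p14, which gives 250 bases before to 50 after a transcription start, matched 2 of the 6 members. CD276 and SSTR2 are shown because they are the members with an entry. The table gives 2 windows for CD276, of which the upstream one is printed. Capitals mark GC boxes (GGGCGG, or CCGCCC on the other strand, with overlapping matches joined). The CD276 window is chr15:73684133-73684432 on the plus strand, and that of SSTR2 is chr17:73164760-73165059 on the plus strand.
CD276: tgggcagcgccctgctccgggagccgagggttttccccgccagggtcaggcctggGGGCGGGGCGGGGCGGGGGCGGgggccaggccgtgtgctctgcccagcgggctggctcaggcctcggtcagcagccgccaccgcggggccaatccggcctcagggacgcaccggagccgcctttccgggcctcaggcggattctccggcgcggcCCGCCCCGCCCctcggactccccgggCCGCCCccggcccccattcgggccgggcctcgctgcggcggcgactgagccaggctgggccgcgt
SSTR2: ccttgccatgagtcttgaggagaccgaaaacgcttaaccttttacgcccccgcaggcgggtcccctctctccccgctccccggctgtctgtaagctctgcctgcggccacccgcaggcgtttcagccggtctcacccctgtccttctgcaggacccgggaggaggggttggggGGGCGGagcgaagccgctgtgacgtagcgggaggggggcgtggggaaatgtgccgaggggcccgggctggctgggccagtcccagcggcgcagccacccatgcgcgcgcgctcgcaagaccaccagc
The CD276 window printed held 7 GC boxes and 37 CpG dinucleotides at 80.3% G and C, and the SSTR2 window 1 GC box and 27 CpG at 70.0%. The second CD276 window, chr15:73684520-73684819 on the plus strand, held 2 GC boxes and 28 CpG. Of 35116 promoters listed there, 45.0% held a GC box, the median CpG count was 14 and the median G and C content 58.7%. A match describes these letters and is not a measured binding site.

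SEZ6, the best known target of the family, was higher after lurbinectedin in both ISL1-high lines. In H187 it stood at 129, 122 and 127 CPM in lurbinectedin libraries, against 102, 108 and 109 CPM in DMSO libraries. Its values did not overlap, and the rise was 1.19-fold, a log2 fold change of 0.25 ± 0.04 (SE, adjusted p = 2.5e-04). In H209 it stood at 74.8, 70.2 and 77.7 CPM in lurbinectedin libraries, against 66.1, 65.8 and 65.5 CPM in DMSO libraries. Each treated library lay above every DMSO library, with a log2 fold change of 0.18 ± 0.04 (adjusted p = 6.8e-05). The ISL1-low lines showed no such difference. In H82 it had 176, 176 and 184 CPM in lurbinectedin libraries, against 179, 173 and 193 CPM in DMSO libraries (log2 fold change -0.01, 95% interval -0.10 to 0.08, adjusted p = 0.91). In SHP-77 it had 120.0, 114 and 122 CPM in lurbinectedin libraries, against 125, 124 and 117 CPM in DMSO libraries (log2 fold change -0.04, 95% interval -0.11 to 0.03, adjusted p = 0.64). In both lines the treated and DMSO values overlapped.

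SEZ6L, which shares the CUB and sushi layout of SEZ6, was the member with the largest change. In H209 it stood at 38.5, 34.3 and 40.3 CPM in lurbinectedin libraries, against 67.2, 65.5 and 66.8 CPM in DMSO libraries. The groups were far apart in relation to their spread: treated libraries were 1.75-fold lower, a log2 fold change of -0.81 ± 0.04 (adjusted p = 2.7e-20). In H187 it stood at 63.9, 64.2 and 68.9 CPM in lurbinectedin libraries, against 74.5, 75.6 and 78.3 CPM in DMSO libraries. This fall was smaller, -0.21 ± 0.04 on the log2 scale (adjusted p = 0.0015), again without overlap.

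The ISL1-low lines held less SEZ6L RNA and gave the same size of log2 fold change as H187. SHP-77 had 26.8, 27.9 and 25.2 CPM in lurbinectedin libraries, against 30.7, 32.1 and 29.4 CPM in DMSO libraries (log2 fold change -0.21 ± 0.05, adjusted p = 0.025). Its groups did not overlap, but the call was lost on leaving out lurbinectedin replicate 1 or 3 or DMSO replicate 1 or 2, with adjusted p of 0.052 to 0.23. H82 had 14.7, 14.6 and 14.5 CPM in lurbinectedin libraries, against 16.4, 17.2 and 17.5 CPM in DMSO libraries (log2 fold change -0.21 ± 0.07, adjusted p = 0.083). These groups did not overlap either, and the difference did not pass. It passed when all 24 libraries were fitted together (adjusted p = 0.028) and in the authors' deposited table (FDR 0.049).

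SEZ6L2, the third family member, did not move one way across lines. It fell in H209, where it had 174, 164 and 177 CPM in lurbinectedin libraries, against 196, 183 and 195 CPM in DMSO libraries (log2 fold change -0.15 ± 0.03, adjusted p = 3.7e-04). It rose in H82, where it had 124, 119 and 119 CPM in lurbinectedin libraries, against 108, 105 and 109 CPM in DMSO libraries (log2 fold change 0.18 ± 0.04, adjusted p = 0.019). In both lines the groups did not overlap. The call in H82 was lost on leaving out any of its libraries but DMSO replicate 3, with adjusted p of 0.061 to 0.11. In H187 it had 58.5, 55.0 and 57.2 CPM in lurbinectedin libraries, against 51.2, 52.4 and 55.0 CPM in DMSO libraries (log2 fold change 0.11 ± 0.04, adjusted p = 0.078). That difference passed with library totals as the only scaling (adjusted p = 0.019), with all 24 libraries in 1 fit (0.047) and without DMSO replicate 3 (0.048). In SHP-77 the ranges overlapped, at 304 to 316 CPM in lurbinectedin libraries and 294 to 307 CPM in DMSO libraries (log2 fold change 0.04, 95% interval -0.02 to 0.10, adjusted p = 0.56).

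**Figure D1:**
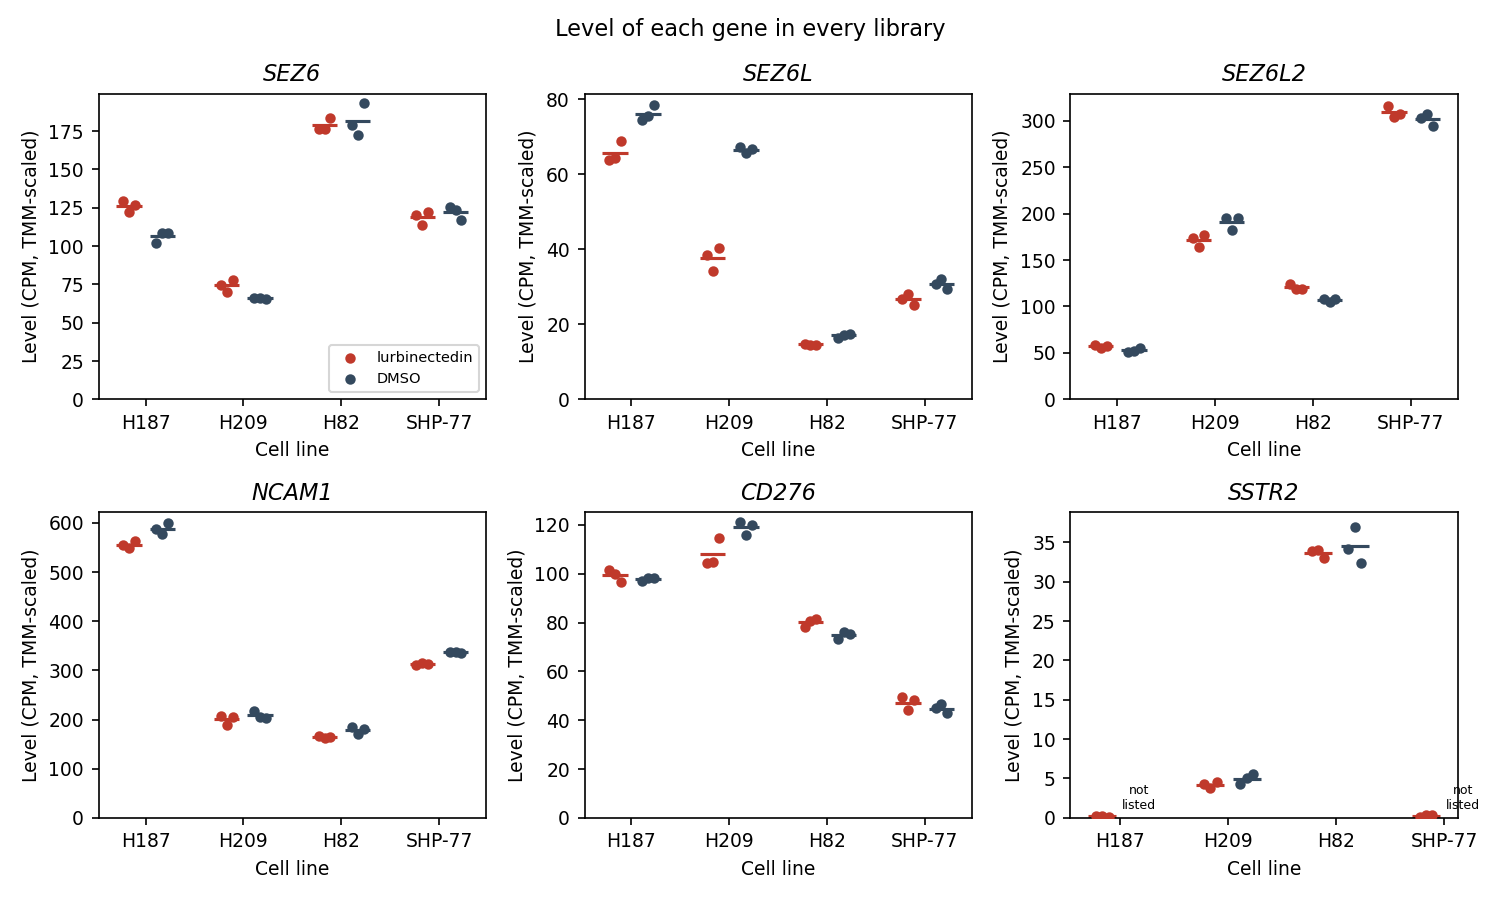
Level of each of the 6 genes in every library, in CPM on TMM-scaled library sizes from a baseline of 0, by line, with lurbinectedin in red left of DMSO in dark blue; points are libraries and bars the means of 3. SEZ6L in H209 shows the widest gap between treatments (34.3 to 40.3 against 65.5 to 67.2 CPM), the range across lines is wider than any gap between treatments for each gene, and SSTR2 is not listed for DMSO in H187 and SHP-77.

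NCAM1, the marker CD56, changed little. SHP-77 had 312, 315 and 314 CPM in lurbinectedin libraries, against 338, 338 and 336 CPM in DMSO libraries (log2 fold change -0.10 ± 0.03, adjusted p = 0.022). The replicates of this line lay within 4 CPM of each other in either group and did not overlap. The call was nevertheless lost on leaving out any library but DMSO replicate 3 (adjusted p of 0.052 to 0.11), with all 24 libraries in 1 fit (0.066) and with replicate number as a block (0.061). In H187 it had 555, 548 and 562 CPM in lurbinectedin libraries, against 588, 577 and 600.2 CPM in DMSO libraries (log2 fold change -0.08 ± 0.03, adjusted p = 0.085). In H82 it had 166, 163 and 164 CPM in lurbinectedin libraries, against 184, 171 and 180.0 CPM in DMSO libraries (log2 fold change -0.11 ± 0.04, adjusted p = 0.13). Neither passed, although in both lines the groups did not overlap, and both passed with all 24 libraries in 1 fit (adjusted p = 0.048 in H187 and 0.03 in H82). In H209 the groups overlapped, at 189 to 206 CPM in lurbinectedin libraries and 204 to 216 CPM in DMSO libraries (log2 fold change -0.05, 95% interval -0.12 to 0.02, adjusted p = 0.27).

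CD276, the B7 family member, fell in H209 alone among the 4 fits. There it had 104, 105 and 115 CPM in lurbinectedin libraries, against 121, 116 and 120.2 CPM in DMSO libraries (log2 fold change -0.13 ± 0.03, adjusted p = 0.0014). The highest treated library lay just under the lowest DMSO library. In H82 it had 78.2, 80.5 and 81.6 CPM in lurbinectedin libraries, against 73.1, 76.1 and 75.4 CPM in DMSO libraries, without overlap and without passing (log2 fold change 0.11 ± 0.04, adjusted p = 0.17). Its values overlapped in H187, at 96.6 to 102 CPM in lurbinectedin libraries and 96.9 to 98.5 CPM in DMSO libraries (log2 fold change 0.03, 95% interval -0.06 to 0.12, adjusted p = 0.69). They also overlapped in SHP-77, at 44.2 to 49.4 CPM in lurbinectedin libraries and 42.9 to 46.5 CPM in DMSO libraries (log2 fold change 0.08, 95% interval -0.03 to 0.19, adjusted p = 0.46).

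SSTR2 was present mainly in H82, with 33.9, 34.0 and 33.0 CPM in lurbinectedin libraries, against 34.1, 37.0 and 32.4 CPM in DMSO libraries. These overlapped (log2 fold change -0.03, 95% interval -0.14 to 0.08, adjusted p = 0.83). H209 held less, with 4.35, 3.82 and 4.53 CPM in lurbinectedin libraries, against 4.27, 5.03 and 5.52 CPM in DMSO libraries. At 99 to 163 counts per library the interval was wide, and the groups overlapped (log2 fold change -0.21, 95% interval -0.46 to 0.04, adjusted p = 0.17). The class table gives the treated libraries of the lines whose own tables do not list the gene. In H187 they held 5, 9 and 3 counts, 17 in all (exact Poisson 95% interval 9.90 to 27.2), or 0.187 CPM. In SHP-77 they held 3, 8 and 10 counts, 21 in all (13.0 to 32.1), or 0.233 CPM. These intervals cover counting error only, and the 2 lines overlapped. H82 was 180.2-fold above H187 by the means of treated libraries. That ratio rests on the 17 counts of H187, for which the Poisson interval is 0.109 to 0.300 CPM. No fold change with treatment can be given for H187 or SHP-77.

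Of the members tested, 2 of 5 were called in H187, 4 of 6 in H209, 1 of 6 in H82 and, for SHP-77, 2 of 5. Over all genes tested the shares called were 24.9%, 45.2%, 2.92% and 5.19% in those lines. The number whose groups did not overlap was 4 of 5, 4 of 6, 4 of 6 and 2 of 5, and the share of all genes tested that did so was 38.7%, 52.2%, 21.7% and 22.1%. The median log2 fold change of the members was 0.03, -0.14, -0.02 and -0.04, beside 0.00 over all genes in each line. Each share of the members lay above that of all genes, but with 5 or 6 members 1 gene moves a share far. Whether these shares differ from the background was not tested. The 6 calls in H187 and H209 kept their direction and passed under each of 14 alternatives, and each of the 3 calls in H82 and SHP-77 was lost under at least 4 of 14, as given above. The alternative without a filter tested the same genes as the main fit, so it could not differ from it.

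**Figure D2:**
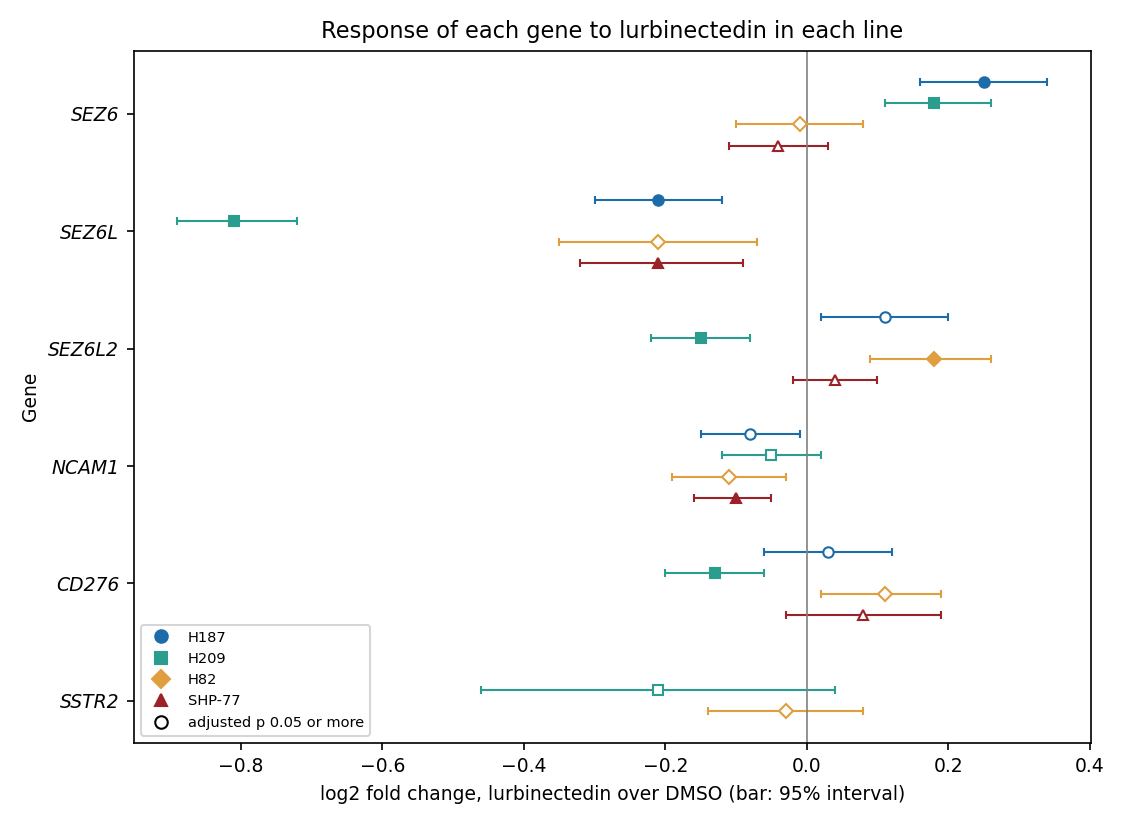
log2 fold change of lurbinectedin over DMSO for each gene (rows, from SEZ6 at the top to SSTR2 at the bottom) in each line (symbols), with bars for the 95% interval of edgeR's fit on 3 against 3 libraries; filled symbols passed an adjusted p of 0.05 and open symbols did not. SEZ6L in H209 lies at -0.81, apart from the other 3 lines at -0.21, and SEZ6 lies at 0.25 and 0.18 in H187 and H209 and near 0 in H82 and SHP-77.

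The response itself was compared between classes, as the mean log2 fold change of the ISL1-high lines minus that of the ISL1-low lines. The design asks whether ISL1-high lines answer the drug differently. The fit treated the lines as fixed, so its p-values describe these 4 lines and not ISL1-high lines in general. For SEZ6 the difference was 0.24 ± 0.04 (adjusted p = 2.9e-05), and for SEZ6L it was -0.30 ± 0.05 (adjusted p = 2.4e-05). CD276 gave -0.15 ± 0.04 (adjusted p = 0.0054) and SEZ6L2 -0.13 ± 0.04 (adjusted p = 0.0086). NCAM1 gave 0.04, with a 95% interval of -0.02 to 0.11 (adjusted p = 0.35). Thus 4 of 5 members listed in all lines passed, where 31.6% of all genes did. Each of these 4 calls passed under all 30 alternatives, including the fit without a filter, which repeated the main fit. None of these alternatives took the line as the unit of replication, so whether the response differs by class beyond these lines was not tested.

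Pairs of lines show where these class differences sit. Over the 6 pairs, 12 of 31 response differences of members passed. H187 and H209 shared the rise of SEZ6 (difference 0.06, 95% interval -0.05 to 0.18), and each differed from each ISL1-low line. H187 minus H82 was 0.27 ± 0.06 (adjusted p = 0.0054) and H187 minus SHP-77 was 0.29 ± 0.06 (adjusted p = 0.0011). H209 minus H82 was 0.21 ± 0.06 (adjusted p = 0.0092, and 0.061 without H209 lurbinectedin replicate 3), and H209 minus SHP-77 was 0.23 ± 0.05 (adjusted p = 0.0014). SEZ6 is therefore the member whose class difference was called in each of the 4 pairs that cross the classes.

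The class difference of SEZ6L came from H209. H209 minus H82 and H209 minus SHP-77 were both -0.59 (SE 0.08 and 0.07, adjusted p = 1.4e-06 and 5.5e-08). H187 minus H209 was 0.59 ± 0.07 (adjusted p = 1.1e-07), so the pair named ISL1-high differed as much. H187 minus H82 was 0.01, with a 95% interval of -0.14 to 0.15, and H187 minus SHP-77 was -0.00, with an interval of -0.14 to 0.14. A difference of the size seen against H209 lies outside both intervals.

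SEZ6L2 and CD276 also set H209 apart. For SEZ6L2, H187 minus H209 was 0.25 ± 0.06 (adjusted p = 0.0035), H209 minus H82 was -0.32 ± 0.05 (adjusted p = 5.1e-05) and H209 minus SHP-77 was -0.18 ± 0.05 (adjusted p = 0.0033). Its responses in H187 and in the ISL1-low lines did not differ detectably (H187 minus H82 -0.06, interval -0.19 to 0.06, and H187 minus SHP-77 0.07, interval -0.03 to 0.18). For CD276, H209 minus H82 was -0.23 ± 0.06 (adjusted p = 0.0021) and H209 minus SHP-77 was -0.21 ± 0.06 (adjusted p = 0.0086). H187 minus H209 was 0.16 ± 0.05 and did not pass (adjusted p = 0.065), but passed under 5 of 18 alternatives.

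By pair, 2 of 5 members were called for H187 minus H209 (10.4% of all genes), 1 of 5 for H187 minus H82 (10.2%) and 1 of 5 for H187 minus SHP-77 (10.7%). H209 gave 4 of 6 against H82 (26.9% of all genes) and 4 of 5 against SHP-77 (28.4%). Between H82 and SHP-77, edgeR called 0 of 5 (0.205% of all genes), DESeq2 also called 0, and 1 of 5 had an unadjusted p under 0.05 (SEZ6L2, difference 0.14, interval 0.05 to 0.24, adjusted p = 0.23). NCAM1 and SSTR2 gave no called response difference in any pair tested.

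For each member the range across lines was wider than any difference with treatment. Under DMSO SEZ6 averaged 106 ± 3.64 CPM in H187, 65.8 ± 0.268 in H209, 182 ± 10.6 in H82 and 122 ± 4.49 for SHP-77. H82 was thus highest and H209 lowest, 2.76-fold apart. After lurbinectedin the averages were 126 ± 3.50, 74.3 ± 3.78, 179 ± 4.34 and 119 ± 4.36 CPM. H187 stood above SHP-77 after lurbinectedin and below it in DMSO, and the treated ranges of the 2 lines met at 122 CPM.

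SEZ6L was higher in both ISL1-high lines. It averaged 76.1 ± 1.96 CPM in H187, 66.5 ± 0.888 in H209, 17.0 ± 0.570 in H82 and 30.7 ± 1.33 for SHP-77 under DMSO. After lurbinectedin it averaged 65.6 ± 2.80, 37.7 ± 3.07, 14.6 ± 0.0820 and 26.7 ± 1.37 CPM. The order of the lines was the same, but H209 moved towards SHP-77.

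SEZ6L2 ran in another order, highest in SHP-77 and lowest in H187. It averaged 52.8 ± 1.93 CPM in H187, 191 ± 7.33 in H209, 107 ± 2.06 in H82 and 302 ± 6.68 for SHP-77 under DMSO, a 5.71-fold range. NCAM1 averaged 588 ± 11.7, 208 ± 6.99, 178 ± 6.81 and 337 ± 1.05 CPM in those lines, and CD276 97.8 ± 0.839, 119 ± 2.97, 74.9 ± 1.55 and 44.7 ± 1.77 CPM. NCAM1 was thus highest in H187, and CD276 in H209 with H187 next. SSTR2 averaged 4.94 ± 0.627 CPM in H209 and 34.5 ± 2.32 in H82.

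All 31 tests of a member between 2 lines under DMSO passed, neighbours in these orders included. Between 85.0% and 88.4% of all genes did so as well (85.0% for H187 minus H209, 87.5% for H187 minus H82, 87.2% for H187 minus SHP-77, 88.4% for H209 minus H82, 87.3% for H209 minus SHP-77 and 88.1% for H82 minus SHP-77). The calls on levels therefore say nothing particular about the members, and the sizes are the description. The smallest were NCAM1 in H209 over H82 (log2 difference 0.21 ± 0.04), SEZ6L in H187 over H209 (0.21 ± 0.04) and SEZ6 in H187 over SHP-77 (-0.19 ± 0.05). The largest were SSTR2 in H209 over H82 (-2.81 ± 0.08), SEZ6L2 in H187 over SHP-77 (-2.50 ± 0.04) and SEZ6L in H187 over H82 (2.15 ± 0.06).

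Between classes under DMSO, the mean of the ISL1-high lines minus that of the ISL1-low lines was 1.64 ± 0.03 for SEZ6L, 0.90 ± 0.03 for CD276 and 0.51 ± 0.03 for NCAM1 on the log2 scale. It was -0.83 ± 0.03 for SEZ6 and -0.84 ± 0.03 for SEZ6L2. All 5 passed, as did 89.0% of all genes. After lurbinectedin the differences were 1.32 ± 0.04 for SEZ6L, 0.73 ± 0.03 for CD276, 0.54 ± 0.02 for NCAM1, -0.61 ± 0.03 for SEZ6 and -0.98 ± 0.03 for SEZ6L2. SSTR2 was high in H82 alone, with 3 to 10 counts per treated library in H187 and SHP-77. It gave -1.66 ± 0.27, where the authors' deposited table has -2.99. The cause of that gap was not tested. All 6 passed, as did 88.9% of all genes.

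These class tests treat the 4 lines as fixed. With 1 value per line, 2 lines against 2 cannot reach an exact permutation p below 0.33, and limma on such values called no member in either treatment (adjusted p of 0.65 to 0.92). In the authors' deposited class table, SEZ6L (FDR 1.1e-04) and CD276 (FDR 0.012) pass 0.05, and SEZ6 (0.056), SSTR2 (0.066), SEZ6L2 (0.079) and NCAM1 (0.16) do not. Those FDRs rest on treated libraries of the same 4 lines and add no further lines to a class. Both ISL1-high lines lay above both ISL1-low lines for SEZ6L and CD276 in either treatment. For SEZ6 both lay below both under DMSO but not after lurbinectedin, and for SEZ6L2, NCAM1 and SSTR2 the classes were mixed.

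Levels of different genes can be compared per length, as CPM per kb of exonic length. On this scale NCAM1 led in H187, at 65.1 ± 0.802 CPM per kb after lurbinectedin and 69.0 ± 1.38 in DMSO. SEZ6L2 led in SHP-77, at 86.9 ± 1.77 and 84.8 ± 1.88, and in H209, at 48.2 ± 2.00 and 53.8 ± 2.06. SEZ6 led in H82, at 41.6 ± 1.01 and 42.3 ± 2.46. Each line thus had one of 3 genes as its most abundant member, in both treatments. CD276 ranged from 13.2 ± 0.766 after lurbinectedin and 12.5 ± 0.497 in DMSO in SHP-77 to 30.2 ± 1.62 and 33.3 ± 0.833 CPM per kb in H209.

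Within the SEZ6 family the make-up differed by line more than by treatment. SEZ6 formed 53.0% ± 0.399 of the family's summed CPM per kb after lurbinectedin and 48.4% ± 0.577 in DMSO in H187 (SD, n = 3). In H209 it formed 24.3% ± 0.137 and 19.3% ± 0.553, in H82 53.5% ± 1.00 and 56.3% ± 1.05, and in SHP-77 23.3% ± 0.612 and 24.1% ± 0.364. SEZ6L2 formed most of the sum in H209 (67.7% ± 0.386 after lurbinectedin and 67.9% ± 0.744 in DMSO) and in SHP-77 (73.3% ± 0.427 and 72.0% ± 0.361). SEZ6L was the smallest part in every group: 18.0% ± 0.709 and 22.6% ± 0.269 in H187, 8.05% ± 0.285 and 12.8% ± 0.191 in H209, 2.86% ± 0.0394 and 3.46% ± 0.144 in H82. Its SHP-77 shares were 3.42% ± 0.216 and 3.97% ± 0.0846. In H187 and H209 the SEZ6 share was higher and the SEZ6L share lower in all 3 treated libraries than in all 3 DMSO libraries, and the SEZ6L2 share overlapped. In H82 and SHP-77 the SEZ6L share was likewise lower without overlap, and the SEZ6L2 share was higher without overlap (42.7% to 44.6% in lurbinectedin libraries and 39.1% to 40.8% in DMSO libraries of H82, and 72.8% to 73.6% and 71.6% to 72.3% for SHP-77). The SEZ6 share was lower without overlap in H82 (52.5% to 54.5% and 55.6% to 57.5%) and overlapped in SHP-77 (22.8% to 24.0% and 23.8% to 24.5%). The family's sum was 55.3 ± 1.44 CPM per kb after lurbinectedin and 51.2 ± 1.58 in DMSO in H187, 71.2 ± 3.34 and 79.2 ± 2.19 in H209, 77.7 ± 0.932 and 74.9 ± 2.98 in H82. SHP-77 had the highest sum, 119 ± 2.34 and 118 ± 3.03.

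**Figure D3:**
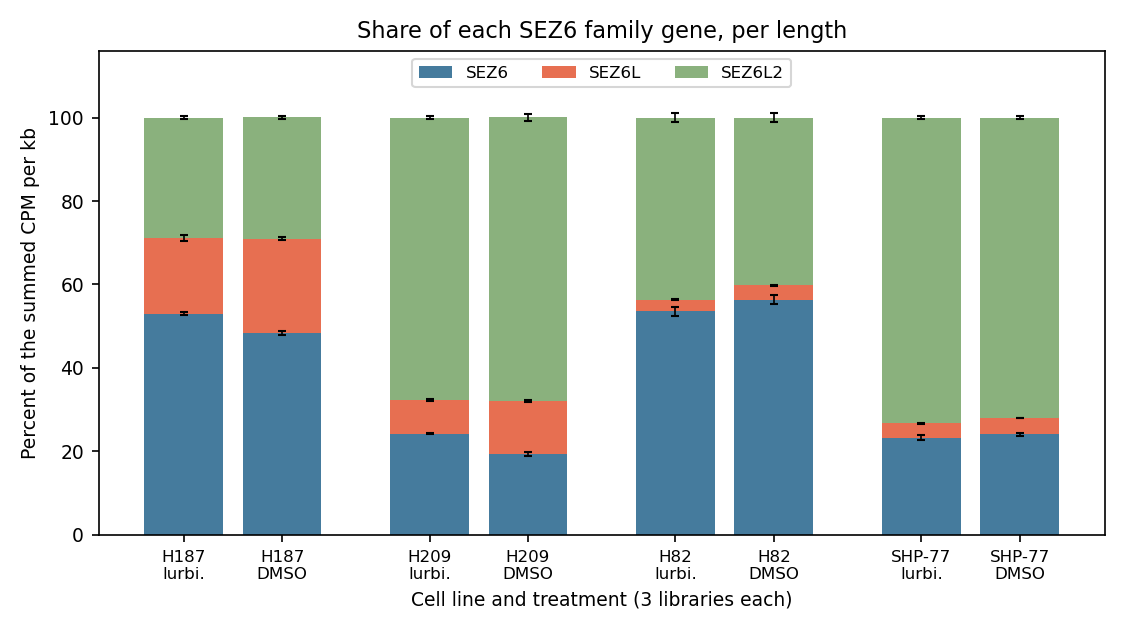
Share of SEZ6 (blue), SEZ6L (orange) and SEZ6L2 (green) in their summed CPM per kb, as a percent from 0 to 100, by line with lurbinectedin left of DMSO; bars are means of 3 libraries and black bars the SD of each gene's share, drawn at its upper edge. SEZ6L2 makes up 67.7% and 67.9% of H209 and 73.3% and 72.0% of SHP-77, and the SEZ6L part of H209 is 8.05% after lurbinectedin and 12.8% in DMSO.

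The members' changes can be set beside those of genes of like genomic span. Among genes of 200 to 400 kb, the class that holds SEZ6L and NCAM1, the log2 fold change had a median of -0.20 for H187, -0.21 for H209, -0.08 for H82 and -0.09 for SHP-77. In those lines 48.3%, 58.1%, 6.03% and 16.0% of 691, 685, 647 and 700 such genes were called lower. SEZ6L stood at the class median in H187 (-0.21) and below it in H209 (-0.81), H82 (-0.21) and SHP-77 (-0.21). Its 95% interval reached the class median in H82 (-0.35 to -0.07) and SHP-77 (-0.32 to -0.09), and did not in H209 (-0.89 to -0.72). NCAM1 stood above it in H187 (-0.08) and H209 (-0.05) and near it in H82 (-0.11) and SHP-77 (-0.10). Among genes of 30 to 100 kb, the class of SEZ6 and CD276, the medians were 0.01, 0.01, -0.01 and -0.00, and 13.8%, 24.2%, 0.798% and 2.06% were called higher. For SEZ6L2, the class of 10 to 30 kb had medians of 0.05, 0.04, 0.02 and 0.02. The part of span in a member's change was not tested.

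**Figure D4:**
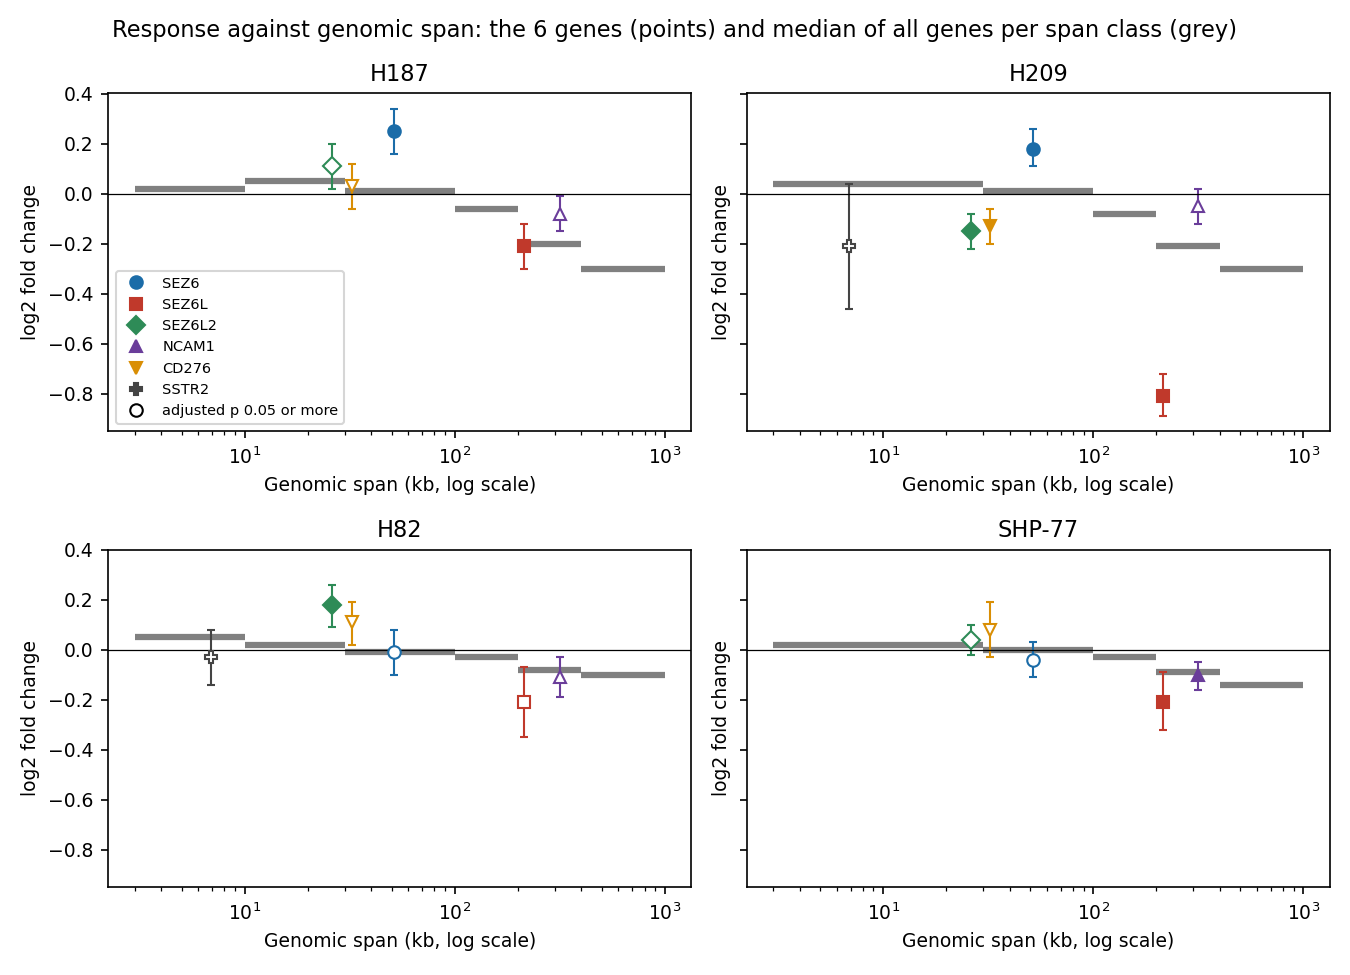
log2 fold change of lurbinectedin over DMSO (y) against genomic span in kb on a log scale (x) in the 4 lines; coloured symbols are the 6 genes with 95% intervals, filled where the adjusted p was under 0.05, and grey bars are the medians of all genes tested in 6 span classes (the outer classes, under 10 kb and 400 kb or more, are open-ended and drawn from 3 and to 1000 kb). SEZ6L2 and CD276 are shifted sideways by 7% so that both can be seen. From 10 kb upward the medians fall with span in each line, and SEZ6L in H209 lies at -0.81, where its class median is -0.21.

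Genes linked to the SEZ6 family were listed for 15 of 16 in H187, 14 in H209, 12 in H82 and 14 for SHP-77. They are the protease BACE1 and other substrates, glutamate receptor subunits, and relatives with CUB and sushi domains. In H187 1 rose and 6 fell, in H209 2 rose and 7 fell, in H82 none passed, and in SHP-77 3 fell. Of all genes tested, 12.2% rose and 12.7% fell in H187, 22.7% and 22.5% in H209, 1.55% and 1.38% in H82 and, for SHP-77, 1.98% and 3.21%. Their median log2 fold changes were -0.11, -0.21, -0.04 and -0.05, beside 0.00 over all genes. The CUB and sushi gene CSMD1 was lower in H187, at 0.455 ± 0.267 CPM after lurbinectedin and 2.97 ± 0.667 in DMSO (log2 fold change -2.64 ± 0.30, adjusted p = 1.1e-06), and in SHP-77 (-0.20 ± 0.05, adjusted p = 0.027). Its relative CSMD2 fell in H187 (-0.77) and H209 (-0.78), and CSMD3 in H187 (-1.01), H209 (-1.79) and SHP-77 (-0.52). GRIK2, a kainate receptor subunit, fell by 1.12 in H187, 0.98 in H209 and 0.23 in SHP-77 on the log2 scale. The genes of this list with the smallest adjusted p in H209 were GRIA1, an AMPA receptor subunit (-0.48 ± 0.07, and -0.34 ± 0.09 in H187), and the BACE1 substrates APP (-0.30 ± 0.03) and APLP2 (-0.26 ± 0.03).

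Relatives and partners of NCAM1, with the enzymes that polysialylate it, were measured for 20 of 24 in H187, 22 in H209, 20 in H82 and 19 for SHP-77. In H187 2 rose and 7 fell, in H209 4 rose and 12 fell, in H82 1 fell, and in SHP-77 1 rose and 3 fell. The medians were -0.10, -0.16, 0.00 and -0.04. Over all genes tested, 12.2% rose and 12.7% fell in H187, and 22.7% and 22.5% in H209. In H82 1.55% rose and 1.38% fell, and in SHP-77 1.98% and 3.21%. Whether the counts of this list differ from those shares was not tested. CNTN1, a contactin of axons, was lower in H187 (75.7 ± 2.62 CPM after lurbinectedin and 108 ± 5.19 in DMSO, -0.50 ± 0.05), H209 (22.0 ± 0.189 and 43.4 ± 2.40, -0.97 ± 0.05) and H82 (202 ± 7.00 and 229 ± 2.37, -0.18 ± 0.04, adjusted p = 0.013). The synaptic adhesion gene CADM2 fell in H187 (-1.47 ± 0.16), H209 (-1.80 ± 0.15) and SHP-77 (-0.87 ± 0.08). CADM1 in H187 (-0.24 ± 0.04) and H209 (-0.31 ± 0.03) also fell, as did NCAM2, the nearest relative of NCAM1, in H209 (-0.89 ± 0.29) and SHP-77 (-0.43 ± 0.08). MCAM, an endothelial and melanoma adhesion molecule, rose in H209 (39.3 ± 3.12 CPM after lurbinectedin and 27.9 ± 0.362 in DMSO, 0.51 ± 0.05), in H187 (0.28 ± 0.10, adjusted p = 0.039) and in SHP-77 (0.15 ± 0.03).

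Of 15 other B7 and butyrophilin genes, 8, 9, 6 and 7 were measured in H187, H209, H82 and SHP-77. In H187 and H209 2 rose, the same pair in each, and no other passed in any line. NCR3LG1, a ligand of an activating receptor of natural killer cells, rose by 0.13 ± 0.05 in H187 (adjusted p = 0.038) and 0.10 ± 0.04 in H209 (adjusted p = 0.027). BTN2A2, a butyrophilin, rose in H187 at a low level (1.89 ± 0.103 CPM after lurbinectedin and 0.974 ± 0.188 in DMSO, 0.96 ± 0.22, adjusted p = 0.0031) and in H209 (0.21 ± 0.09, adjusted p = 0.046). The medians of this list were 0.16, 0.00, 0.00 and 0.06.

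Of 12 genes of the somatostatin system besides SSTR2, 6, 8, 6 and 8 were measured. In H187 2 rose, in H209 2 rose and 1 fell, in H82 none passed, and in SHP-77 1 rose and 1 fell. The medians were 0.10, 0.07, 0.02 and 0.01. Over all genes tested, 12.2% rose and 12.7% fell in H187, and 22.7% and 22.5% in H209. In H82 1.55% rose and 1.38% fell, and in SHP-77 1.98% and 3.21%. Whether the counts of this list differ from those shares was not tested. The arrestin ARRB2, which binds activated receptors, rose in H187 (0.21 ± 0.05) and H209 (0.26 ± 0.05), and its relative ARRB1 rose in SHP-77 (0.15 ± 0.03). GNAO1, an inhibitory G protein subunit, rose in H187 (0.29 ± 0.04) and fell in H209 (-0.17 ± 0.03) and SHP-77 (-0.11 ± 0.03). The receptor SSTR1 rose in H209 at a low level, 2.95 ± 0.550 CPM after lurbinectedin and 1.94 ± 0.527 in DMSO (0.64 ± 0.18, adjusted p = 0.0037).

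Other genes linked to surface targets in tumours were measured for 28 of 35 in H187, 29 in H209, 25 in H82 and 27 for SHP-77. The list includes enzymes, such as those of B4GALNT1 and FUT1, which are not surface targets themselves. In H187 4 rose and 9 fell, in H209 6 rose and 10 fell, in H82 2 rose and 2 fell, and in SHP-77 4 rose and 3 fell. The medians were -0.05, -0.07, 0.08 and 0.07. Over all genes tested, 12.2% rose and 12.7% fell in H187, and 22.7% and 22.5% in H209. In H82 1.55% rose and 1.38% fell, and in SHP-77 1.98% and 3.21%. Whether the counts of this list differ from those shares was not tested. In H187 the ganglioside synthase gene B4GALNT1 (0.45 ± 0.07) and the receptor gene ERBB3 (0.59 ± 0.08, and 0.18 ± 0.03 in H209) rose, and the phosphate carrier gene SLC34A2 fell (-0.27 ± 0.04). In H209 FUT1, a fucosyltransferase gene, rose to 90.1 ± 2.69 CPM after lurbinectedin, against 46.5 ± 1.10 in DMSO (0.96 ± 0.04, adjusted p = 1.9e-25), and it rose in SHP-77 (0.17 ± 0.05, adjusted p = 0.046). TFRC, the transferrin receptor, fell in H209 (-0.22 ± 0.03) and H187 (-0.13 ± 0.04, adjusted p = 0.024). In H82 DLL3, a Notch ligand, rose (130 ± 6.67 CPM after lurbinectedin and 110 ± 9.55 in DMSO, 0.25 ± 0.05, adjusted p = 0.012). In the ISL1-high lines DLL3 fell, by 0.22 in H187 (adjusted p = 4.9e-04) and 0.14 in H209 (adjusted p = 0.0021) on the log2 scale. The glypican GPC3 fell in H209 (-0.82 ± 0.23) and H82 (-0.80 ± 0.21). The Wnt receptor gene ROR1 fell in the 3 lines that list it (-1.32 ± 0.21 in H209, -0.31 ± 0.07 in H82 and, for SHP-77, -0.43 ± 0.08). Its relative ROR2 fell in H187 (-1.52 ± 0.34, at 0.324 ± 0.121 CPM after lurbinectedin and 0.924 ± 0.246 in DMSO) and in SHP-77 (-0.31 ± 0.06).

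The genes whose log2 CPM ran most like each member over the 24 libraries, among 10881 that averaged at least 1 on that scale, were as follows. SEZ6 ran most like SIX5 (Pearson r = 0.984) and PRDX6 (0.983). SEZ6L ran most like TMTC2 (0.986), YWHAZ (0.985) and PRKCA (0.979). SEZ6L2 ran most like C16orf58 (0.995), PPP1R3F (0.993) and GRAMD4 (0.993). For NCAM1 they were IL6ST (0.997), ARHGEF11 (0.992) and OSBPL2 (0.991), and for CD276 PTK7 (0.993), HMGB2 (0.988) and RHNO1 (0.988). The 24 libraries fall into 4 lines, and these values follow the 4 line levels. Within the 8 groups the pairs named had r between -0.40 and 0.46.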

How the data were processed

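Total RNA of 24 libraries was sequenced after Ribo-Zero Plus depletion with a stranded kit, per the labels' protocols. Reads were aligned to hg38, counted and compared with tools that the submitters' processing notes name as STAR (2.7.10a), Subread (2.0.3), featureCounts and edgeR (4.2.0). Per the file headers, the deposited tables hold raw counts, log2 CPM, log2 fold changes, p-values and FDR. The largest count of every listed gene was at least 15, so low genes had been left out before deposit.

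Counts were tested in R 4.3.3 with edgeR 4.0.16 (filterByExpr minimum count 10 and total 15, TMM, glmQLFit, glmQLFTest), each line on its 6 libraries and class or pair fits on genes listed in all tables concerned. Levels are CPM on TMM scaling over 24 libraries, from 11408 shared genes. Library totals are sums over the genes listed for a line, 24226553 to 36415190 counts per library, and leave out reads of unlisted genes. Alternatives were RLE factors, library totals, other filters, DESeq2 1.42.0, replicate number as a block, all libraries in 1 fit, limma 3.58.1 on 1 value per line, the authors' deposited results and leaving out each library. The members and gene lists were chosen with earlier results of these data known, and from each list up to 3 genes per line with the smallest adjusted p are named, with their calls in other lines, as are up to 3 genes per member with the highest correlation of levels. A gene that meets these rules is not reported here.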

Additional observations from a re-analysis of the deposited data

Results flagged for a closer look

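The results singled out here are those where the response to lurbinectedin differed between lines by a test of the difference itself, in edgeR's quasi-likelihood test. Between the ISL1-high and the ISL1-low lines, the log2 response differed by 0.24 for SEZ6, -0.30 for SEZ6L, -0.15 for CD276 and -0.13 for SEZ6L2. Between H187 and H209, both ISL1-high, it differed by 0.59 for SEZ6L and 0.25 for SEZ6L2. H187 differed from H82 by 0.27 and from SHP-77 by 0.29 for SEZ6. H209 differed from H82 by 0.21 for SEZ6, -0.59 for SEZ6L, -0.32 for SEZ6L2 and -0.23 for CD276. H209 differed from SHP-77 by 0.23 for SEZ6, -0.59 for SEZ6L, -0.18 for SEZ6L2 and -0.21 for CD276. These comparisons share libraries, since each line enters 3 pairs and the class comparison, so they are not separate pieces of evidence. Lines were treated as fixed, so the class values describe these lines and not ISL1-high lines in general. ISL1 was itself lower after lurbinectedin in H187 (-0.19 ± 0.04) and H209 (-0.31 ± 0.03), and its part in these differences was not tested.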

How the results depend on the processing

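Alternatives left the sign of every called member result as it was. The fit without a filter tested the same genes as the main fit in each line and class comparison, so it could not change a call there. In single lines 283 of 306 alternatives over 22 results kept the call, 16 lost it and 7 gained one. All 371 alternatives over 31 DMSO levels kept it, as did 552 of 558 over 31 response differences (1 lost, 5 gained) and 339 of 354 over 16 class results (15 lost). Over all genes, H82 had 395 calls, but 755 with the replicate block, 635 with all 24 libraries in 1 fit, 652 in the authors' deposited table, and 93 to 1397 on leaving out 1 library (1397 without DMSO replicate 3). SHP-77 had 737, but 458 with all 24 libraries in 1 fit and 417 to 706 on leaving out 1. Its count with the replicate block was 561, and that of H187 2863, of H209 6438 and of the response difference 3362. With limma on 1 value per line the class counts were 0 under DMSO and 0 under lurbinectedin (817 and 1108 genes at an unadjusted p under 0.05), where edgeR gave 10158 and 12858 and DESeq2 10060 and 12765, and the authors' deposited class table gave 5478. The cause of these shifts was not tested. With library totals as the only scaling, the split of higher and lower calls was 2420 and 1243 in H187, where TMM gave 1708 and 1778, and 2295 and 1303 for the response difference, where TMM gave 1787 and 1819. That scaling moved the median of all genes in the class comparison under lurbinectedin to 0.20, where TMM gave 0.06. Deviations of same-numbered libraries from their group means had r of -0.211 to 0.182, and those of differently numbered ones -0.179 to 0.299. With 3 libraries per group these values cannot settle whether the numbers pair the libraries. Of the member calls, the replicate block ended that of NCAM1 in SHP-77 (adjusted p = 0.061) only. Counts of 3 to 10 per library limit SSTR2 in H187 and SHP-77.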
